A study of Mus musculus with 4 samples.

Results

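The genes described are 10 receptors of the tumour necrosis factor (TNF) receptor superfamily that T cells use: Tnfrsf1a, Tnfrsf1b, Tnfrsf4, Tnfrsf9, Tnfrsf18, Tnfrsf21, Tnfrsf25, Tnfrsf26, Cd27 and Fas. They were picked by gene symbol, and all 10 were found once each among the 52636 genes of the deposited table. RNA sequencing had been done on mouse Th17 cells, the interleukin 17 secreting helper T cells, made in culture from naive cells of strain C57BL/6. There were 2 libraries of the genotype PP2A WT and 2 of PP2A cKO. The labels name neither the deleted subunit of the phosphatase PP2A nor the Cre driver, and they give no age of the mice. Both genotypes shared the same culture: irradiated autologous antigen presenting cells (ratio 1:3), 2 µg/ml of anti-CD3 and of anti-CD28, 2 ng/ml of TGFβ1, 20 ng/ml of IL-6, and 10 µg/ml of anti-IL4 and of anti-IFNγ, all for 2 days. For the last 4 h the cells were restimulated with PMA at 50 ng/ml plus ionomycin at 500 ng/ml, so every level below is that of restimulated cells.

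Receptors of this family bind trimeric ligands of the TNF family through cysteine-rich repeats outside the cell. One class, with Tnfrsf1a (TNFR1), Fas, Tnfrsf21 (death receptor 6) and Tnfrsf25 (death receptor 3), carries a death domain inside the cell that can recruit the adaptors TRADD or FADD. Another class, with Tnfrsf1b (TNFR2), Tnfrsf4 (OX40), Tnfrsf9 (4-1BB), Tnfrsf18 (GITR) and Cd27, binds TRAF adaptors, activates NF-κB and costimulates T cells. Tnfrsf26 belongs to a mouse group of receptors that lies beside Tnfrsf22 and Tnfrsf23.

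The values are FPKM, fragments scaled to gene length and library total, so levels may be compared between genes. The reads behind them, recovered from FPKM and gene length, total 18517487 to 20387948 per library. Genotypes were compared with limma on log2(FPKM + 1) over the 10562 genes whose mean reached 1 FPKM, and all 10 receptors passed that filter. Because of the added 1, fold changes of low genes come out too small. Whether the replicates of a genotype came from separate mice or cultures is not said in the labels, which call them biological replicates, and p-values cover only the spread among the 4 libraries. The catalytic gene Ppp2ca had 42.2 and 50.1 FPKM in WT and 41.8 and 34.5 in cKO and did not pass the test (adjusted p = 0.36, limma), so directions rest on the labels. The cKO libraries stood further apart (SD of the log2 difference 0.304 over genes) than the WT libraries (0.209), and their difference followed transcript GC content across genes (Spearman's rho = -0.529, against 0.121 between the WT libraries). T cell markers summed to 728 and 758 FPKM in WT and to 891 and 848 in cKO, and 6 Th17 genes to 4174 and 3833 in WT and to 3058 and 2955 in cKO. The 17 B cell and myeloid markers, which the antigen presenting cells could carry, summed to 1.28 to 1.35 FPKM in WT and 1.21 to 1.24 in cKO. None of them had a mean of 1 FPKM, and 1 was at 0 in every library.

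The receptor genes had fold changes of both signs. Tnfrsf21 fell in cKO by 2.24-fold in mean FPKM, and it was the single receptor of 10 past the threshold (adjusted p = 0.0489, limma). Tnfrsf1b and Cd27 had lower values in both cKO libraries too, and they passed the threshold when the recovered reads were tested with limma voom. Tnfrsf9, Tnfrsf18 and Fas had the higher values in both cKO libraries without passing either test. The other 4 receptors had overlapping genotypes. With 1 receptor lower and none higher, the background was 0.256% of tested genes lower and 0.814% higher. With voom 3 were lower and none higher, against 3.35% lower and 2.52% higher among all tested genes. For 3 receptors the cKO pair lay wholly under the WT pair and for 3 wholly above it, where 28.7% and 27.2% of all tested genes did so. The median log2 fold change of the 10 receptors was -0.03, beside -0.003 over all genes tested. Which receptors were called depended on single libraries: on log2(FPKM + 1) none was lower without WT replicate 1 or without WT replicate 2, 2 were lower without cKO replicate 1, and 4 were lower and 3 higher without cKO replicate 2. The last omission gave 1390 higher and 1614 lower genes in the whole table. In bulk RNA, fewer cells that carry a receptor and less of its RNA per cell cannot be told apart.

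**Figure D1:**
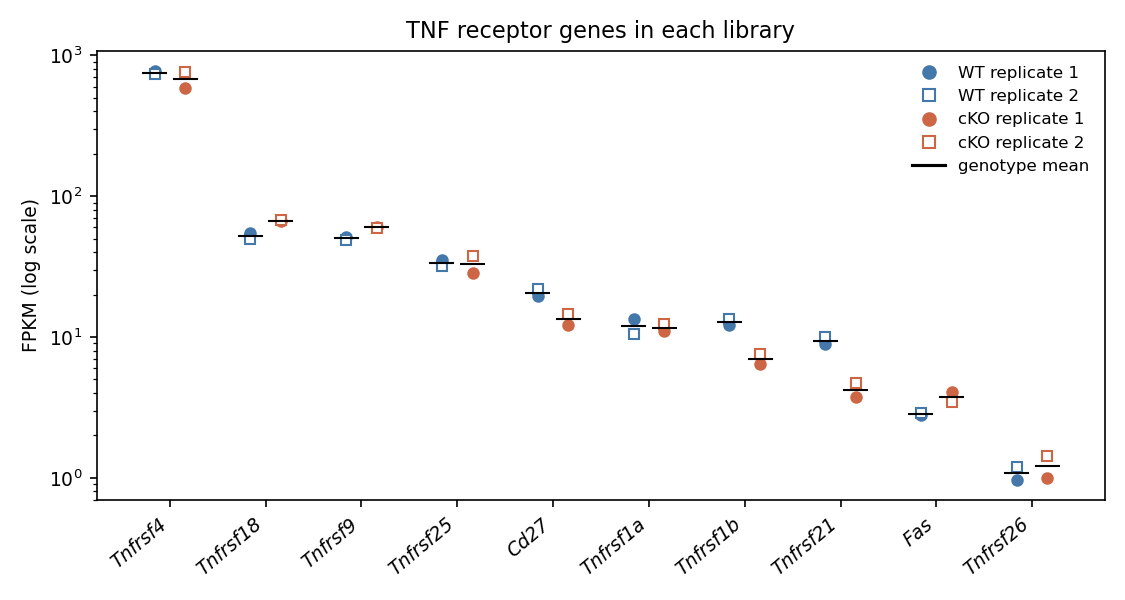
FPKM (y axis, log scale) of the 10 TNF receptor genes, ordered by level, with 1 point for each library, 2 of PP2A WT and 2 of PP2A cKO, and a short bar for each genotype mean. Tnfrsf4 stands at 589 to 772 FPKM, above every other receptor, and the cKO libraries lie under the WT libraries for Cd27, Tnfrsf1b and Tnfrsf21.

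By level the receptors spread over nearly the whole range of tested genes. Tnfrsf4 was the highest in both genotypes, with a mean of 755 FPKM in WT and 677 in cKO, at percentile 99.5 of the tested genes, and it took 75.2% to 79.5% of the summed FPKM of the 10 receptors. Next came Tnfrsf18 and Tnfrsf9, at percentiles 90.6 and 89.8, and then Tnfrsf25 and Cd27. In WT the ranges of the 2 libraries overlapped between Tnfrsf18 and Tnfrsf9 and between Tnfrsf1b and Tnfrsf1a, so the order within those pairs is not set, while all other neighbours in the order lay apart. The order in cKO differed at 1 place: Tnfrsf1a, with a mean of 11.6 FPKM, stood above Tnfrsf1b, with 7.01. In cKO the neighbours whose ranges overlapped were Cd27 with Tnfrsf1a and Tnfrsf21 with Fas. Fas and Tnfrsf26 were the lowest, at percentiles 24.0 and 2.54. Summed over the 10 receptors, the FPKM was 970 and 929 in WT and 783 and 974 in cKO, and without Tnfrsf4 it was 199 and 191 in WT and 194 and 209 in cKO. The summed level thus overlapped between the genotypes with Tnfrsf4 and also without it.

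Among the death domain receptors Tnfrsf21 was the only one past the threshold. It encodes death receptor 6, known in T cells as a restraint on helper cell proliferation and cytokine output. The gene lies on chromosome 17 (43016555 to 43089188, plus strand, GRCm38), in 6 exon blocks. Its level was 8.89 and 9.97 FPKM in WT and 3.72 and 4.72 in cKO, from 631, 691, 274 and 332 reads. Both cKO libraries were low, and the genotypes did not overlap. The WT mean was 9.43 ± 0.765 FPKM and the cKO mean 4.22 ± 0.709 (SD, n = 2), and the log2 fold change was -1.004 ± 0.13 (SE), with a 95% interval from -1.33 to -0.68. This fold change stood at percentile 0.284 of all tested genes. Against the WT mean, cKO replicate 1 lay at -1.14 and cKO replicate 2 at -0.86 on the log2 scale.

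The call of Tnfrsf21 sat close to the threshold. It was kept by voom (log2 fold change -1.21 ± 0.16, adjusted p = 0.0109), and by voom in all 4 omissions of a library, the highest adjusted p being 0.0111. On log2(FPKM + 1) it was lost without WT replicate 1 or WT replicate 2 (adjusted p = 0.0778 and 0.153), and 7 of 13 other settings gave an adjusted p from 0.05 to 0.191 (limma).

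Tnfrsf1a encodes TNFR1, the widely expressed receptor for TNF and lymphotoxin-α. It lies on chromosome 6 (125349362 to 125362484, plus strand). Its level was 13.3 and 10.5 FPKM in WT and 10.96 and 12.3 in cKO. Both cKO values fell between the WT values. The log2 fold change was -0.03 ± 0.14 (adjusted p = 0.917, limma), and its 95% interval, from -0.37 to 0.32, leaves room for changes of that size either way.

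Tnfrsf25, death receptor 3, binds TL1A, the product of Tnfsf15, and costimulates T cells. It lies on chromosome 4 (152115934 to 152120119, plus strand). Its level was 35.0 and 32.0 FPKM in WT and 28.3 and 37.8 in cKO. The cKO libraries flanked the WT libraries and differed from each other by 0.40 on the log2 scale, where the median over all tested genes was 0.17. The log2 fold change was -0.03 ± 0.16, with a 95% interval from -0.44 to 0.37 (adjusted p = 0.923, limma). Its longest transcript had the highest GC content of the 10 genes, 59.4%, and after a correction for GC content the log2 fold change was 0.09 (adjusted p = 0.542, limma).

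Fas, the receptor of Fas ligand that starts apoptosis and removes activated T cells, lies on chromosome 19 (34290659 to 34327770, plus strand). Its level was 2.78 and 2.88 FPKM in WT and 4.04 and 3.46 in cKO. These rest on 98, 99, 148 and 121 reads. The exact Poisson 95% intervals, which cover counting error only, were 2.26 to 3.39 and 2.34 to 3.50 FPKM in WT and 3.42 to 4.75 and 2.87 to 4.14 in cKO. Both cKO values were the higher ones, but the interval of cKO replicate 2 overlapped both WT intervals and that of cKO replicate 1 overlapped the interval of WT replicate 2. The log2 fold change of 0.31 ± 0.11 (95% interval 0.04 to 0.58) did not pass (adjusted p = 0.206, limma). Without cKO replicate 2 the log2 fold change of Fas was 0.40. Within a library Tnfrsf21 stood at 3.20 and 3.47 times the FPKM of Fas in WT and at 0.920 and 1.36 times in cKO, where these death domain receptors had similar levels. Over the 4 death domain receptors 1 was lower and none higher (limma), beside 0.256% lower and 0.814% higher among all tested genes. The median log2 fold change of these 4 was -0.03.

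In the class that binds TRAF adaptors, Tnfrsf1b and Cd27 had the lowest fold changes. Of the 5 genes of this class none was called by limma and 2 were lower with voom. Among all tested genes 0.256% were lower with limma and 3.35% with voom. The median log2 fold change of these 5 genes was -0.17. Tnfrsf1b encodes TNFR2, the inducible TNF receptor of T cells, and lies on chromosome 4 (145213463 to 145246870, minus strand) in 10 exon blocks. Its level was 12.3 and 13.4 FPKM in WT and 6.42 and 7.60 in cKO, from 916, 974, 498 and 563 reads. The genotypes lay apart, with means of 12.8 ± 0.772 and 7.01 ± 0.837 FPKM (SD, n = 2). The log2 fold change was -0.79 ± 0.11, with a 95% interval from -1.07 to -0.50, and it missed the threshold (adjusted p = 0.0541, limma). With voom it was -0.91 ± 0.13 and passed (adjusted p = 0.0141), though not without WT replicate 2 (adjusted p = 0.0646). After a correction for GC content it was -0.75 and passed as well (adjusted p = 0.0291).

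The levels of both TNF receptors can be set against each other within each library. Tnfrsf1b stood at 0.921 and 1.27 times the FPKM of Tnfrsf1a in the WT libraries and at 0.586 and 0.619 times in the cKO libraries. Both ratios in cKO were below both in WT. With 2 libraries against 2, an exact two-sided permutation test of such a value cannot give a p under 0.333.

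Cd27 encodes the receptor of CD70 and is carried by naive and recently activated T cells. The gene lies on chromosome 6 (125232622 to 125237010, minus strand) in 5 exon blocks. Its level was 19.5 and 21.9 FPKM in WT and 12.2 and 14.6 in cKO. Both cKO libraries were low, cKO replicate 1 at -0.72 and cKO replicate 2 at -0.47 against the WT mean on the log2 scale. The means were 20.7 ± 1.67 and 13.4 ± 1.73 FPKM (SD, n = 2), and the log2 fold change of -0.59 ± 0.12 (95% interval -0.91 to -0.28) did not pass (adjusted p = 0.0909, limma). With voom it was -0.67 ± 0.14 and passed (adjusted p = 0.0357), though not without WT replicate 1 (0.0791) or WT replicate 2 (0.327). Cd27 overlaps Vamp1 on the other strand, and the strand setting of the counting is not given in the sources used here. Vamp1 had 1.17 and 1.01 FPKM in WT and 0.784 and 0.832 in cKO.

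**Figure D2:**
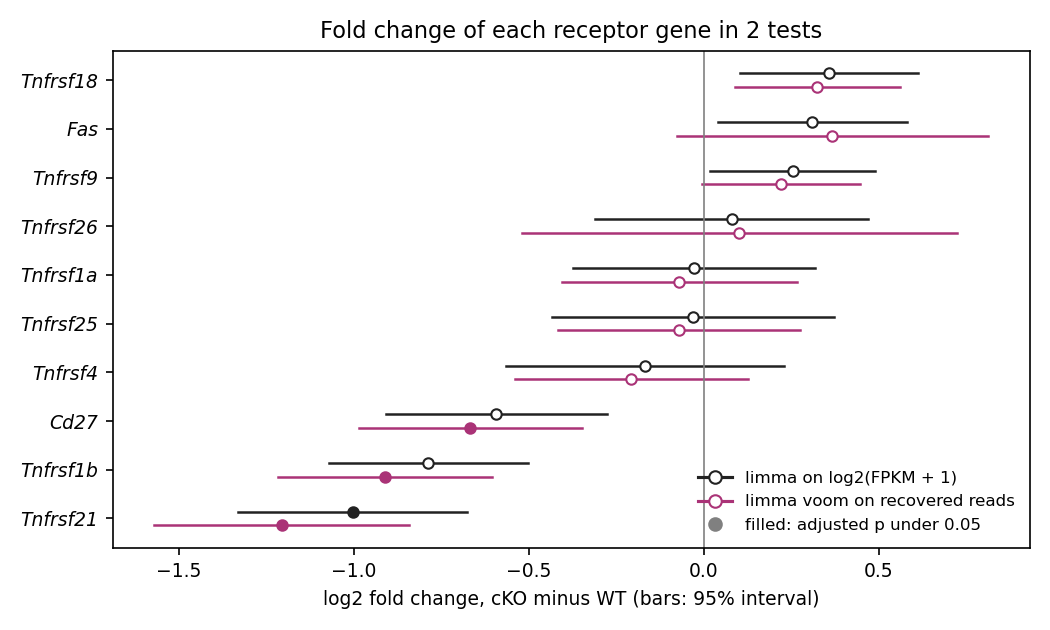
Log2 fold change of each receptor gene, cKO minus WT (x axis), with its 95% interval, from limma on log2(FPKM + 1) and from limma voom on recovered reads. Filled points have an adjusted p under 0.05: Tnfrsf21 in both tests, Tnfrsf1b and Cd27 with voom only.

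Promoter sequence is shown for the 3 receptors with the lowest fold changes, and for Fas, which had the opposite sign and whose window was the only one with an AP-1 match. RefSeq starts (GRCm38.p6) were found for 9 of the 10 genes, and Tnfrsf26 had none. Each window is the 250 bases before the start, 5′ to 3′ on the strand of the gene, and these 4 windows held no annotated exon. Capitals mark matches, on both strands, to the AP-1 motif TGANTCA, the NFAT core GGAAA, the GC box GGGCGG and the κB consensus. Such matches describe letters and show no binding.
Tnfrsf21 (chr17:43016305-43016554, plus strand): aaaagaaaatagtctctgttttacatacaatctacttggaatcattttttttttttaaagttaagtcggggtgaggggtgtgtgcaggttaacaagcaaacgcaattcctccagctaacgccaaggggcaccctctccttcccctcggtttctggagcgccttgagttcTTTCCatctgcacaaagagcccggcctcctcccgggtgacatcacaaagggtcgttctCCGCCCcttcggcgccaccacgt
Tnfrsf1b (chr4:145246871-145247120, minus strand): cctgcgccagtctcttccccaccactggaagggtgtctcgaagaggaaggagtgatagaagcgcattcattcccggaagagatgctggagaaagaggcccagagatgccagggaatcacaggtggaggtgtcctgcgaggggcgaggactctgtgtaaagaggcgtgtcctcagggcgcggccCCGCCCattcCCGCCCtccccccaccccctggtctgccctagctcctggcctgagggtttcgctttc
Cd27 (chr6:125237028-125237277, minus strand): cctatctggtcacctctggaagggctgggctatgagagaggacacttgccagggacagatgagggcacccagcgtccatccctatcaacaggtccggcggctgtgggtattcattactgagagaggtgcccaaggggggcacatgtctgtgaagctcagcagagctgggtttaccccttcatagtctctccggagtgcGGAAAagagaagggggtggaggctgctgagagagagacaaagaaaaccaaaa
Fas (chr19:34290409-34290658, plus strand): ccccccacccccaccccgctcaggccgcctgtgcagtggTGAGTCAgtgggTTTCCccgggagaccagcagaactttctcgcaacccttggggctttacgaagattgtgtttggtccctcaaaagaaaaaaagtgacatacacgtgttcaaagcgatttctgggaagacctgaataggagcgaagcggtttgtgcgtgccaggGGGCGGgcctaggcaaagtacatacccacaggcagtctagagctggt

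No motif was found in all 3 of the lower receptors. Tnfrsf21 had 1 NFAT core and 1 GC box, Cd27 had 1 NFAT core, and Tnfrsf1b had 2 GC boxes. Fas had 1 AP-1 motif, 1 NFAT core close beside it and 1 GC box. Among the other windows, Tnfrsf9 and Tnfrsf18 had 2 NFAT cores each, Tnfrsf4 and Tnfrsf25 had 1 NFAT core each, and Tnfrsf1a had none of the motifs. Tnfrsf9 also had 1 GC box. No κB consensus was found in the windows of the 9 genes. Some of the windows not printed are less sure as promoters. Those of Tnfrsf1a and Tnfrsf18 held exons of the gene itself, with RefSeq starts 361 and 158 bases from the deposited starts. The Tnfrsf4 window held an exon of Sdf4, and the RefSeq start of Tnfrsf9 lay 5593 bases from the deposited start. Which start the cells used was not tested. Over 32851 windows of the same length, 55.6% held an NFAT core, 32.7% a GC box, 7.25% the κB consensus and 6.75% an AP-1 motif.

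Tnfrsf18 and Tnfrsf9, inducible costimulatory receptors of activated and regulatory T cells, were close in level and both had higher values in cKO. Tnfrsf18 (chromosome 4, 156026164 to 156028895, plus strand) had 54.6 and 49.7 FPKM in WT and 66.6 and 67.3 in cKO. The cKO libraries agreed within 0.02 on the log2 scale and lay above both WT libraries. Its log2 fold change of 0.36 ± 0.10 (95% interval 0.10 to 0.61) did not pass (adjusted p = 0.147, limma). The antisense gene Gm16008 overlaps it, with 10 and 11 reads in WT and 21 and 22 in cKO against 1447 to 2061 reads for Tnfrsf18.

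Tnfrsf9 (chromosome 4, 150914562 to 150946102, plus strand) had 51.3 and 49.2 FPKM in WT and 60.8 and 59.4 in cKO. Here too the genotypes were apart and the cKO libraries close together. Its log2 fold change was 0.25 ± 0.09, with a 95% interval from 0.02 to 0.49 (adjusted p = 0.228, limma). Camta1, on the other strand, overlaps the locus and had a mean of 1.08 FPKM in WT and 1.04 in cKO. Without cKO replicate 2 the log2 fold change was 0.35 for Tnfrsf18 and 0.27 for Tnfrsf9.

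Tnfrsf4, which encodes OX40, a receptor that prolongs the survival of activated T cells, lies 9552 bases from Tnfrsf18 (chromosome 4, 156013843 to 156016612, plus strand). Its level was 772 and 738 FPKM in WT and 589 and 765 in cKO, from 16331 to 20611 reads. cKO replicate 1 was low and cKO replicate 2 lay between the WT libraries. The log2 fold change was -0.17 ± 0.16, with a 95% interval from -0.57 to 0.23 (adjusted p = 0.563, limma). The sign rested on cKO replicate 1: Tnfrsf4 was at 0.02 without cKO replicate 1 and at -0.36 without cKO replicate 2. The ratio of Tnfrsf4 to Tnfrsf18 was 14.1 and 14.9 in WT and 8.85 and 11.4 in cKO.

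Tnfrsf26 (chromosome 7, 143607659 to 143628722, minus strand) was near the filter, with 0.969 and 1.204 FPKM in WT and 0.994 and 1.43 in cKO, from 61, 74, 65 and 89 reads. The genotypes overlapped. Its exact Poisson 95% interval in WT replicate 1, from 0.741 to 1.24 FPKM, held the value of cKO replicate 1 but not that of cKO replicate 2. The interval in WT replicate 2, from 0.945 to 1.51 FPKM, held both cKO values. It had a log2 fold change of 0.08 ± 0.15 (95% interval -0.31 to 0.47, adjusted p = 0.791, limma). It shares sequence with Tnfrsf22 and Tnfrsf23, and how reads that fit more than 1 of them were counted is not given in the sources used here.

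**Figure D3:**
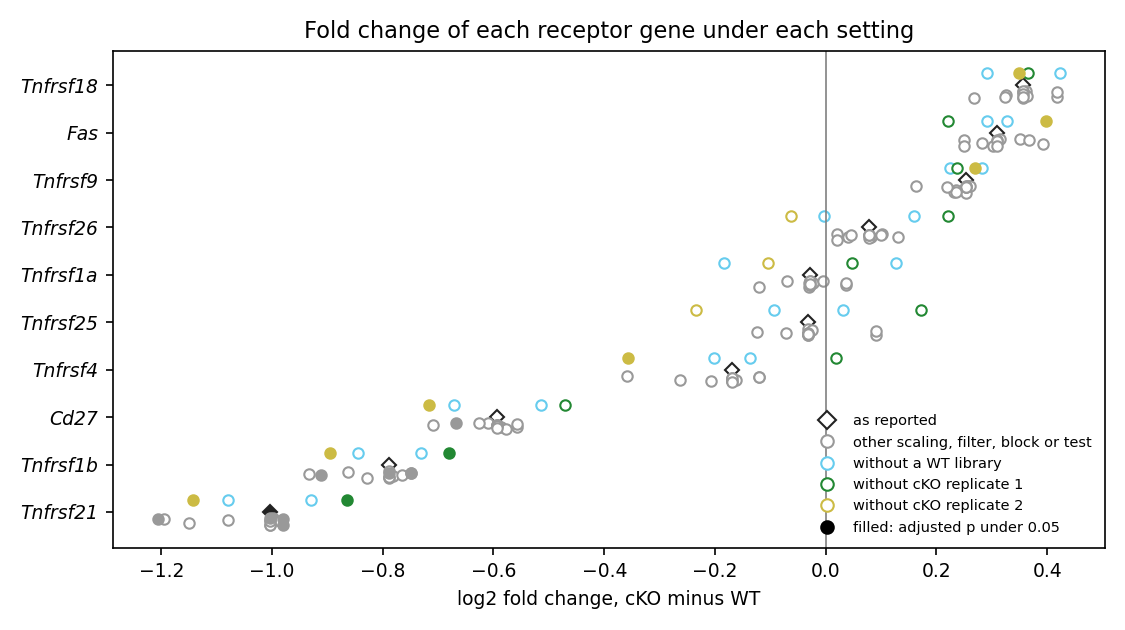
Log2 fold change of each receptor gene, cKO minus WT (x axis), as reported and under each other setting, with the omission of each library in colour and adjusted p under 0.05 as filled points. Tnfrsf21, Tnfrsf1b and Cd27 stay below 0 and Tnfrsf9, Tnfrsf18 and Fas above 0 in every setting plotted, while Tnfrsf1a, Tnfrsf25, Tnfrsf26 and Tnfrsf4 have points on both sides.

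Of the 10 receptor genes 5 lie on chromosome 4, and no neighbouring gene passed the test. Among the 17 nearest genes on either side that passed the filter, none was called by limma or by voom. Their distances reached 1007120 bases, for Enpp4 on the right of Tnfrsf21, so several are not close neighbours. The log2 fold changes ran from -0.45 to 0.31. The lowest was that of 9430015G10Rik, 81087 bases from Tnfrsf18 (adjusted p = 0.0992, limma, and 0.0537, voom). Its cKO libraries were both under both WT libraries. Vamp3, 101198 bases from Tnfrsf9, had the highest (adjusted p = 0.169, limma), with both cKO libraries above. Tapbpl, 762 bases from Cd27, had 17.2 ± 1.17 FPKM in WT and a log2 fold change of -0.07 (adjusted p = 0.757, limma). Sdf4, 233 bases from Tnfrsf4, was at 0.20 (adjusted p = 0.362, limma). Cd2ap, the nearest on the left of Tnfrsf21 at 140131 bases, was at 0.02 (adjusted p = 0.935, limma).

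The genes of the ligands gave larger fold changes than those of the receptors, with a median log2 fold change of 1.52. All 7 tested genes of the ligand list lay above WT in both cKO libraries, where 27.2% of all tested genes did so. Of these ligand genes 3 rose past the threshold (6 with voom), against 0.814% of all tested genes (2.52% with voom). Cd70, the ligand of CD27, went from 7.71 and 4.29 FPKM to 38.2 and 40.2 (log2 fold change 2.56 ± 0.24, adjusted p = 0.0287, limma). Tnfsf4, the OX40 ligand, went from 0.777 and 0.909 to 6.41 and 6.44 FPKM (2.01 ± 0.10, adjusted p = 0.0108, limma). Its WT mean of 0.843 FPKM, from 28 and 32 reads, was under the filter. Tnfsf4 was thus tested only because its cKO values were high, and its call carries that selection. The counts and the median given above for the ligand genes include Tnfsf4, so they carry it too. Lta, which encodes lymphotoxin-α, went from 110 and 92.5 to 318 and 407 FPKM (1.82 ± 0.17, adjusted p = 0.0274), and missed the threshold without WT replicate 2 (adjusted p = 0.0662).

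Set beside their receptors, these ligand values give unlike pairs. Cd70 was higher while Cd27 was lower in both cKO libraries. TNFR2 and its ligands had opposite signs too, with Tnfrsf1b at -0.79 beside Lta at 1.82 and Tnf at 1.52 (281 and 188 FPKM in WT, 567 and 770 in cKO, adjusted p = 0.0635). Tnfrsf1a, whose product binds the same ligands, was at -0.03, and Tnfrsf4 was at -0.17 beside Tnfsf4 at 2.01. Tnfrsf1a and Tnfrsf4 had overlapping genotypes, so the sign of their change is not set. Fas and Fasl had the same sign, with Fasl at 0.63 (2.85 and 2.97 FPKM in WT, 5.59 and 4.55 in cKO, adjusted p = 0.0763, limma). So did Tnfrsf9 and Tnfsf9, the latter at 0.96 (52.3 and 39.8 FPKM in WT, 74.1 and 109 in cKO, adjusted p = 0.111). Ltb, whose product joins lymphotoxin-α in a membrane trimer, was at 0.64 (adjusted p = 0.087, limma). It is counted among the 7 tested ligand genes but was not paired with a receptor here. Tnfsf18, the ligand of GITR, was listed at 0 in every library, and Tnfsf15 had 0.0305 and 0.0469 FPKM in WT and 0.191 and 0.200 in cKO, under the filter. No test of a difference between a receptor and its ligand was made.

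**Figure D4:**
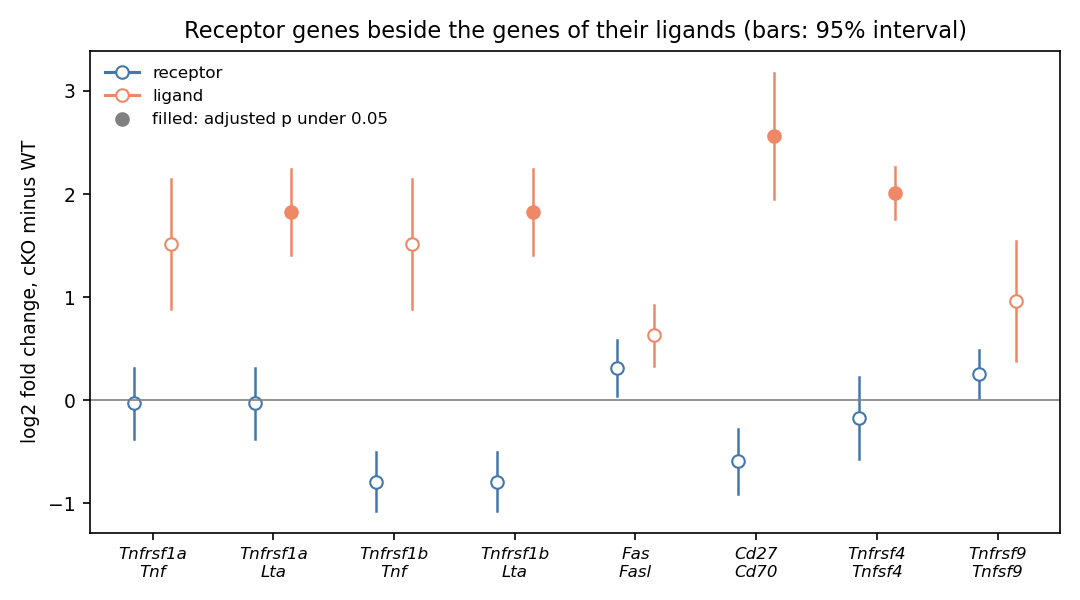
Log2 fold change of receptor genes and of the genes of their ligands (y axis), cKO minus WT, for 8 pairs (x axis), with 95% intervals from limma on log2(FPKM + 1) and adjusted p under 0.05 as filled points. Cd70, Tnfsf4 and Lta are the ligands past the threshold, while Tnfrsf1b and Cd27 lie below 0.

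The other receptors of the superfamily added no call. Of 18 listed, 6 were tested, with a median log2 fold change of 0.20, and 12 stayed under the filter. Relt was the most changed, with 9.44 and 8.04 FPKM in WT and 4.35 and 5.74 in cKO (adjusted p = 0.0924, limma). Its log2 fold change was -0.69 ± 0.15, and it passed with voom (adjusted p = 0.0316). Of 9 further ligands 4 were tested, and Tnfsf8, the CD30 ligand, had the highest fold change (0.83 ± 0.13, adjusted p = 0.0588). Tnfsf8 passed with voom (adjusted p = 0.0158), as did Cd40lg, the CD40 ligand (adjusted p = 0.0291).

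No gene of the signalling lists passed the test on log2(FPKM + 1). Of 26 TRAF and death domain adaptor genes none passed, and their median log2 fold change was 0.03. Tnfaip3, which encodes the NF-κB inhibitor A20, had the furthest value, 0.59 ± 0.20 (adjusted p = 0.202, limma). Traf3, an adaptor that restrains non-canonical NF-κB, had 20.3 and 21.3 FPKM in WT and 13.9 and 15.6 in cKO (adjusted p = 0.0927). It passed with voom (adjusted p = 0.0339). Of 16 NF-κB subunit, inhibitor and kinase genes none passed, with a median of 0.08. Ikbke was at 0.53 ± 0.13 (adjusted p = 0.118), and with voom Ikbke and Rel, which encodes the subunit c-Rel, were higher (adjusted p = 0.0478 and 0.0374).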

How the data were processed

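The authors deposited FPKM per gene for 4 libraries, with gene lengths. The submitters' processing notes name featureCounts 1.5.0-p3 and list GRCm38 and mm10 as builds. Not given in the sources used here are the aligner, annotation release and strand setting. Reads were recovered from FPKM, gene length and the size of 1 read in each library, and 100% of nonzero values came out whole to within 0.01 read. The test was limma 3.58.1 (R 4.3.3) on log2(FPKM + 1), with a variance trend, over all genes whose mean reached 1 FPKM, cKO minus WT, two-sided, with Benjamini-Hochberg adjustment at 0.05 and no block. limma voom ran on the reads. The procedure was tested on simulated data. GENCODE M21 held 99.6% of the gene IDs and gave exons and transcript GC content. Promoters came from RefSeq.

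Members, gene lists and tests were chosen with earlier results of these data known. The named genes are all members, their ligands and some of the nearest tested neighbours. From each list, those past the threshold (up to 4 per direction) or else the most changed gene are named. Traf3, Rel and Cd40lg were named after their values were seen, and the promoter motifs were chosen likewise. Alternatives covered pseudocount, filter, scaling, variance model, a replicate block, GC content, voom and the omission of each library. The omissions with voom were added after seeing the data.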

Additional observations from a re-analysis of the deposited data

How the results depend on the processing

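With 2 libraries per genotype the calls were few and moved with the setting. On log2(FPKM + 1), 86 genes were higher and 27 lower, and 1 receptor was lower. No receptor was lower with a pseudocount of 0.5 or 0.1, in TPM, with quantile scaling, without a variance trend or with a robust variance. A pseudocount of 0.1 left 15 genes lower in all, and TPM left 52 higher. Without a filter, 0 genes were called by limma in either direction among 21807 (3012 at an unadjusted p under 0.05), so 0 receptors and 0 genes of the pathway lists passed there, where these lists had 3 higher and 0 lower as reported. With a filter of 5 FPKM, 2 receptors were lower. Median-of-ratios scaling kept 1 receptor lower, with 89 genes higher and 27 lower. A GC correction gave 257 higher and 236 lower genes, 2 receptors lower, and 6 list genes higher and 1 lower. voom gave 266 and 354, 3 receptors lower, and 10 list genes higher and 2 lower. Calls were 76.1% higher as reported, 65.6% with the filter of 5 FPKM, 52.1% with the GC correction and 42.9% with voom.

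The labels do not say whether libraries with the same replicate number were paired. The differences between replicates correlated at -0.093 between the genotypes across genes. This value cannot settle pairing, since the cKO difference also followed transcript GC content (Spearman's rho = -0.529). With a replicate block, 154 genes were higher and 73 lower, with 2 receptors lower (Tnfrsf21, adjusted p = 0.017, and Tnfrsf1b, 0.034). With the replicate block and the GC correction together, 153 were higher and 81 lower, again with 2 receptors lower.

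Omitting each library in turn gave 49 to 1390 genes higher and 6 to 1614 lower, 0 to 3 receptors higher and 0 to 4 lower, and 2 to 15 list genes higher and 0 to 11 lower. The lone library left in an arm is then assumed to vary like the other genotype.

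Of the receptors, 4 changed sign in some setting. With the GC correction, with or without the block, Tnfrsf1a was at 0.036 and Tnfrsf25 at 0.090. Over the omissions Tnfrsf1a ran from -0.18 to 0.13, Tnfrsf25 from -0.23 to 0.17, Tnfrsf4 from -0.36 to 0.019 and Tnfrsf26 from -0.063 to 0.22. With voom, Tnfrsf1a was at 0.085 without WT replicate 1 and 0.0084 without cKO replicate 1, Tnfrsf25 at 0.14 without cKO replicate 1, and Tnfrsf26 at -0.071 without WT replicate 1 and -0.15 without cKO replicate 2. The causes of these shifts were not tested. Depth limits Tnfrsf26 and Fas, which rest on 61 to 148 reads per library.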
